A study of Mus musculus with 72 samples.

Results

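Control livers of the C57BL/6N substrain were compared with control livers of the C57BL/6J substrain, 8 arrays against 8, taken by their titles from a series of 72 liver arrays. C57BL/6 is the most widely used inbred mouse strain. Its N and J lines have been bred apart for decades and carry different spontaneous mutations. The mice were wild-type males, C57BL/6NTac (B6N below) and C57BL/6J (B6J), 15 to 17 weeks old in both control groups, housed singly and random-fed at sampling. The protocol gives controls a low-fat diet for at most 21 days, while their treatment label reads none. A further 15 arrays of the same substrains (7 B6J and 8 B6N livers of mice 17 weeks old after 21 days of high-fat diet, HFD) gave a comparison of the substrains in other animals. Control livers of 2 other strains were used for ranks within arrays only: 8 of 129P2/OlaHsd (17 weeks old) and 18 of C3HeB/FeJ (15 to 17 weeks old). Supplier, litter, cage and day are not given. A difference between the B6N and B6J groups is therefore one between these lines as kept, and p-values measure the spread between arrays.

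Total RNA was read on Affymetrix Mouse Gene ST arrays, and each value below is a log2 level made with RMA, which corrects background, scales arrays to one another and summarises the probes of a probe set. Of 35556 probe sets, 21789 named 1 gene symbol, and 19938 genes were tested, each by its probe set with the highest mean. Array medians ran from 4.51 to 4.67 over the 31 B6N and B6J arrays, so their levels could be set side by side. An array measures its probes, so a sequence difference between substrains under a probe and a difference in transcript cannot be told apart. In whole liver, fewer cells of a type and less RNA per cell cannot be told apart either. Alb, encoding albumin, had a mean level of 13.85 ± 0.130 in B6J and 13.83 ± 0.171 in B6N controls (SD, n = 8 each), and Ttr, encoding the carrier transthyretin, 13.56 ± 0.0743 and 13.54 ± 0.113. Neither hepatocyte gene was called, and both were abundant, as the label liver has it. The arrays were also split into parts along the main axis of variation within groups, which carried 29.4% of that variance. Replicates 1 to 4 of both control groups lay in 1 part (part A) and replicates 5 to 8 in the other (part B). Values on this axis were positive in part A and negative in part B. Replicate 4 of the B6N controls, at 0.36, lay close to the cut. The labels do not name these parts, and each holds 4 control arrays of each substrain. For controls, values within each part are therefore given beside the main results. The HFD arrays were not balanced: part A held 5 of B6J and 3 of B6N, and part B 2 of B6J and 5 of B6N.

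Nnt, the gene best known to separate the lines, encodes nicotinamide nucleotide transhydrogenase, an inner mitochondrial membrane pump that uses the proton gradient to make NADPH for the matrix. C57BL/6J carries a deletion inside Nnt. Cholesterol synthesis runs from acetyl-CoA through mevalonate and squalene to sterols in liver cells. Its genes are switched on together by the transcription factor SREBP2, encoded by Srebf2, when membrane sterol is low. ATF4, a factor induced by shortage of amino acids and by unfolded protein in the endoplasmic reticulum, switches on Asns and other stress genes.

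At a Benjamini-Hochberg adjusted p under 0.05 in the limma fit of all 31 arrays, 6 genes differed between control livers, 0.0301% of those tested. Nnt, Wdfy1 and Acnat2 were higher in B6N (0.015% of genes), and Entpd4, Tmem267 and G530011O06Rik were lower (0.015%). A total of 1873 genes (9.39%) passed an unadjusted p of 0.05, 811 higher in B6N (4.07%) and 1062 lower (5.33%). The median log2 difference over all genes was 0.015.

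**Figure D1:**
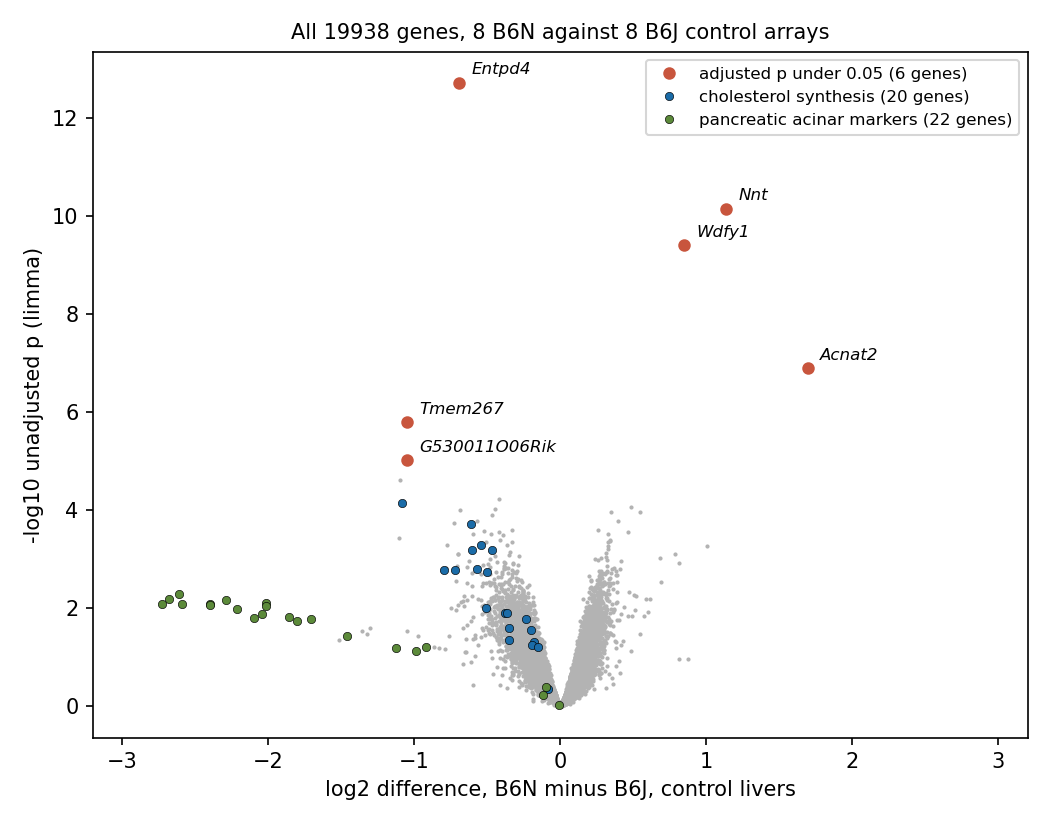
Each of the 19938 genes by its log2 difference (B6N minus B6J control livers, horizontal) and its unadjusted limma p (-log10, vertical). The 6 called genes (red, named) lie apart, the 20 cholesterol synthesis genes (blue) all lie left of 0, and most of the 22 pancreatic acinar markers (green) lie far to the left at weaker p.

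The Nnt level ran from 7.65 through a median of 7.86 to 8.11 in B6J controls and from 8.39 through 9.02 to 9.62 in B6N controls. Every B6N liver lay above every B6J liver, and the B6N values spread wider (SD 0.368 against 0.154). The log2 difference was 1.14 ± 0.12 (SE), 2.20-fold (95% interval 1.85 to 2.61; adjusted p = 6.91e-07 in limma). It was 1.15 in part A and 1.12 in part B. The signal did not fall to the lowest levels of the array in B6J: the median rank of Nnt among all genes was the 88.3th percentile in B6J and the 94.6th in B6N. Which probes of the set lie in the deleted part was not examined.

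Wdfy1, an endosomal phosphoinositide-binding protein known as an adaptor of Toll-like receptor signalling, had levels of 5.10 to 5.61 in B6J (median 5.38) and 6.00 to 6.45 in B6N (median 6.25). The groups did not overlap. The log2 difference was 0.85 ± 0.10, 1.80-fold (1.57 to 2.07; adjusted p = 2.57e-06 in limma), with 0.95 in part A and 0.74 in part B.

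Acnat2, of a family of enzymes that join fatty or bile acids to amino acids, had the largest called difference. Its level was 3.06 to 3.85 in B6J (median 3.30) and 4.31 to 5.96 in B6N (median 4.94). All 8 B6N livers lay above all 8 B6J livers, and those B6N values fell over a wide range. The log2 difference was 1.70 ± 0.25 (adjusted p = 6.28e-04 in limma). The B6J level was close to that of the retinal gene Crb1 (mean 3.33) and may be background, for which the values carry no detection call, so no fold is given and the difference can understate the change. It was 1.86 in part A and 1.53 in part B, where 4 arrays against 4 did not pass the test (adjusted p = 0.181 in limma). Its paralogue and chromosomal neighbour Acnat1 differed by 0.0018 ± 0.17 (adjusted p = 0.998 in limma), and the next measured gene, Baat, which conjugates bile acids, by 0.02 ± 0.11 (adjusted p = 0.968). Probes of Acnat2 and Acnat1 may partly recognise both transcripts, which the files do not settle.

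Entpd4, a nucleotide phosphatase of the Golgi and lysosomal membranes, had the smallest p. Its level was 8.25 to 8.43 in B6J (median 8.31) and 7.54 to 7.76 in B6N (median 7.61). The groups were tight and did not overlap. The log2 difference was -0.70 ± 0.06, 1.62-fold lower in B6N (1.49 to 1.76; adjusted p = 3.74e-09 in limma), with -0.67 and -0.72 in parts A and B. A gene copy, Entpd4b, is annotated in the mouse, and its signal on the probes of Entpd4 cannot be set apart here.

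Tmem267, a transmembrane protein of little-known function, had levels of 6.59 to 8.01 in B6J (median 7.08) and 5.62 to 6.78 in B6N (median 5.99). Of the B6N livers 7 of 8 lay below every B6J liver, and replicate 1 of B6N overlapped them. The log2 difference was -1.05 ± 0.18, 2.07-fold lower (1.60 to 2.67; adjusted p = 0.00635 in limma). It was -1.20 in part A, where it did not pass (adjusted p = 0.263), and -0.90 in part B (adjusted p = 0.00617). Tmem267 lies near Nnt on chromosome 13, with Paip1 and 4833420G17Rik between them in the GRCm38.p6 gene order. Paip1, which acts in translation, differed by 0.02 ± 0.12 and 4833420G17Rik by -0.14 ± 0.11, so the opposite differences of Nnt and Tmem267 stood on either side of a pair of genes that did not pass the test (adjusted p = 0.974 and 0.727 in limma). Ccl28, a chemokine and the next measured gene, differed by -0.04 ± 0.06, and the measured gene after it was Hmgcs1 of cholesterol synthesis.

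G530011O06Rik, an RNA gene of the X chromosome with no known function, had levels of 4.32 to 6.03 in B6J (median 5.35) and 3.87 to 4.39 in B6N (median 4.23). Its B6N values were close together and its B6J values wide, with 7 of 8 B6N livers below every B6J liver. The log2 difference was -1.05 ± 0.20 (adjusted p = 0.0317 in limma), with -1.07 in part A and -1.03 in part B. This call was close to the threshold. Leaving out any 1 of replicates 1, 2, 3, 6 or 7 of B6J lost it. So did leaving out any 1 of replicates 1, 3, 4, 6, 7 or 8 of B6N (adjusted p up to 0.115 over these fits). It was also lost within both parts (adjusted p = 0.263 and 0.831). The estimate stayed between -1.18 and -0.94 when any 1 array was left out.

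**Figure D2:**
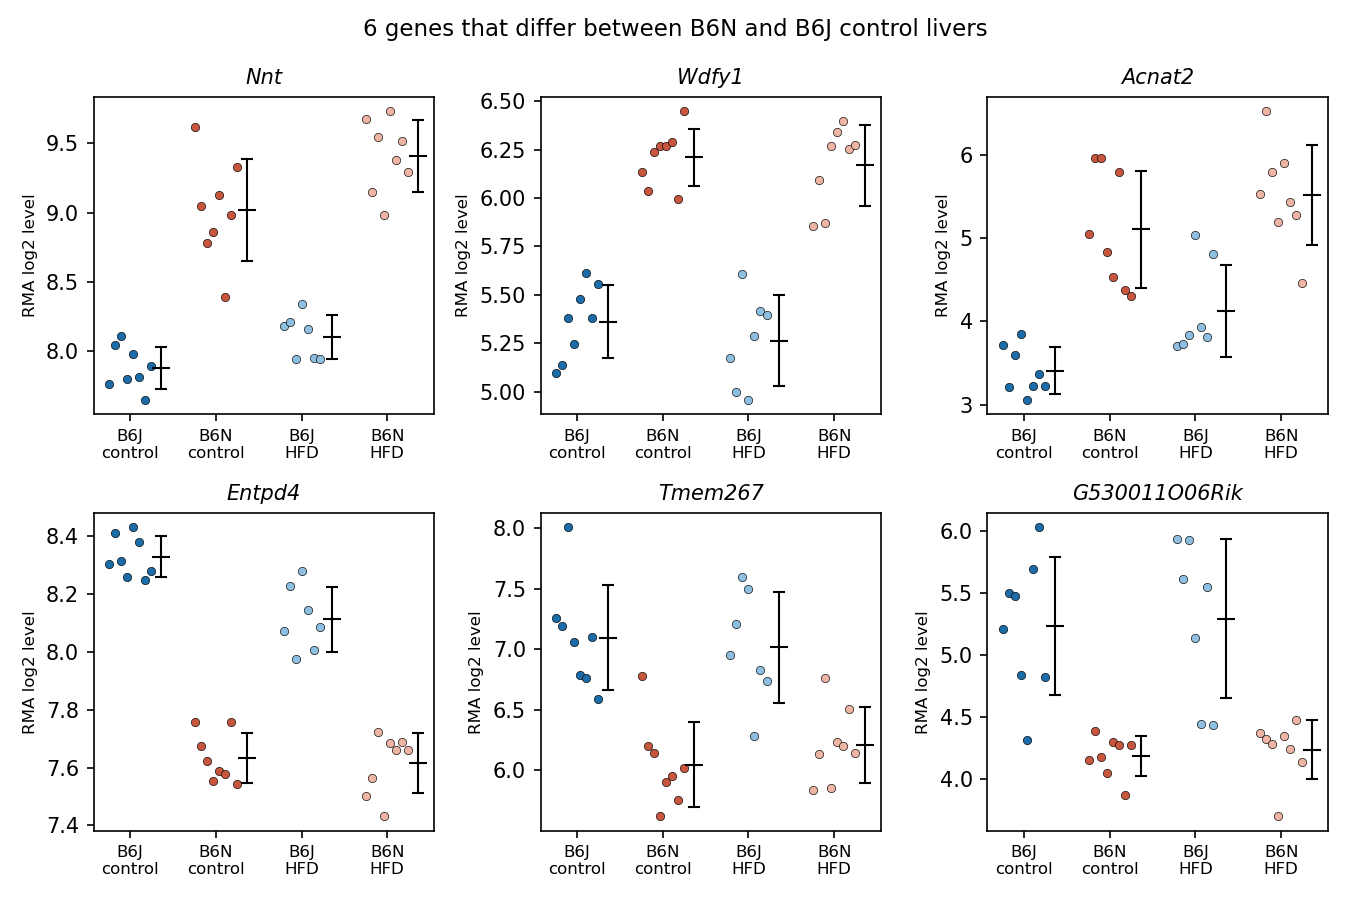
RMA log2 levels of the 6 called genes (1 panel each) on each array in the 4 groups of B6J and B6N livers, with group mean and SD at the right of each group. Nnt, Wdfy1 and Acnat2 are higher and Entpd4, Tmem267 and G530011O06Rik lower in B6N than in B6J, in control and in HFD livers.

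The list of genes known for sequence variants between the lines had 11 measured members, of which Nnt, Wdfy1 and Entpd4 were called. These were listed with knowledge of the lines, so their direction is not independent evidence. Of the other 8, Ide, the insulin-degrading enzyme, had the lowest p, with levels of 8.45 to 9.05 in B6J and 8.02 to 8.99 in B6N and a difference of -0.26 ± 0.12 (adjusted p = 0.508 in limma). The groups overlapped. The remaining 7 had estimates from -0.07 (Zp2, an egg coat protein) to 0.05 (Fgfbp3, a binding protein of fibroblast growth factors), none called. Crb1, the retinal polarity gene mutated in C57BL/6N, had means of 3.33 and 3.36, and Cyfip2, a regulator of actin that carries a C57BL/6N variant, of 4.63 and 4.66. Adcy5, Gabra2 and Vmn2r65 differed by 0.02, 0.0010 and -0.03.

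The same contrast in HFD livers took its estimates from other arrays than the control contrast. Both shared the residual spread of the fit of all 31 arrays, so their p-values are not independent. On HFD the substrains were spread unevenly over parts A and B, for which this fit does not adjust. There 37 genes were called (0.186%), among them 5 of the 6 genes called in controls, which is 83.3% of the control calls and 13.5% of the HFD calls. All 6 had the same sign. Nnt differed by 1.30 ± 0.13, Wdfy1 by 0.91 ± 0.10, Acnat2 by 1.39 ± 0.26, Entpd4 by -0.50 ± 0.06 and G530011O06Rik by -1.06 ± 0.21, and Tmem267 by -0.81 ± 0.18 (adjusted p = 0.0639 in limma). The number of HFD calls moved with single arrays, to 24 without B6J HFD replicate 3 or 5, to 21, 23 or 56 without B6N HFD replicate 5, 6 or 8. Of the 37, which include the 5 called in both, 36 had the same sign in controls. An unadjusted p of 0.05 was passed there by 23, against 9.39% of all genes. No same-sign share over all genes is given, so the count of 36 has no reference.

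The difference between the diets was tested by the interaction, for which 0 genes were called in limma (829 at an unadjusted p under 0.05, 4.16%). Cyp2b9, a P450 enzyme, had a substrain difference of 0.81 ± 0.49 in controls and 3.80 ± 0.51 on HFD. Its B6J means, 3.29 and 3.34, were as low as that of Crb1 and may be background, and its B6N levels ran from 3.43 to 9.48 on HFD. Cyp7a1, the rate-limiting enzyme of bile acid synthesis, was at -0.83 ± 0.43 in controls and -2.04 ± 0.45 on HFD. For Cyp2b9 and Cyp7a1 the differences on HFD were called and those in controls were not, while the interaction itself was not called (2.98 ± 0.71 and -1.21 ± 0.62, adjusted p = 0.957 and 1 in limma). Without B6N HFD replicate 8 the interaction count was 1. These genes, and those named from here on, were chosen after their values were seen.

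**Figure D3:**
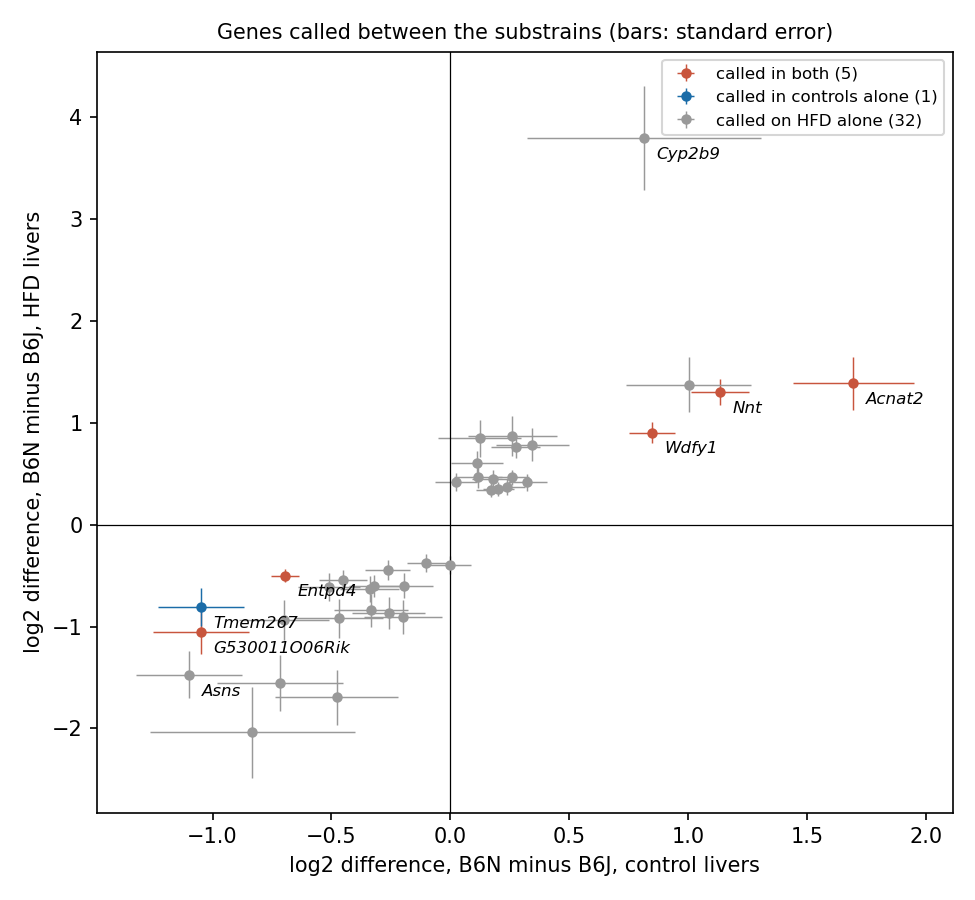
Log2 difference of B6N minus B6J in control livers (horizontal) and in HFD livers (vertical) for every gene called in either contrast, with standard error bars. Of the 38 genes 5 were called in both, Tmem267 in controls alone and 32 on HFD alone.

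Genes of cholesterol synthesis had lower estimates in B6N controls, and none was called. The estimate was lower for 20 of 20 measured genes, against 8926 of 19938 genes tested, and 17 passed an unadjusted p of 0.05 on the lower side (5.33% of all genes). The median log2 difference was -0.42, against 0.015 over all genes. It was -0.47 in part A and -0.42 in part B. The mean level of the list per array ran from 9.43 to 9.67 in B6J and from 8.60 to 9.48 in B6N. All but 1 of the B6N arrays lay below every B6J array, and they spread wider (SD 0.303 against 0.0838).

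In the early steps, Hmgcs1, the synthase that makes HMG-CoA, had levels of 10.95 to 11.21 in B6J (median 11.07) and 9.94 to 10.97 in B6N (median 10.50), and 7 of 8 B6N livers lay below every B6J liver. Its difference was -0.61 ± 0.16 (adjusted p = 0.300 in limma). Idi1, the isomerase of the isoprene unit, differed by -0.54 ± 0.14 (adjusted p = 0.266) and Fdps, which makes farnesyl diphosphate, by -0.47 ± 0.12 (adjusted p = 0.299). Mvk and Mvd, kinase and decarboxylase of mevalonate, had smaller estimates, -0.15 ± 0.08 and -0.35 ± 0.17.

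At the branch to sterols, Fdft1, the squalene synthase, did not overlap between the groups: 10.30 to 10.72 in B6J and 9.39 to 10.29 in B6N. Such separation, B6N below B6J, held for 4 genes of all tested (0.0201%) and B6N above B6J for 8 (0.0401%). The difference of Fdft1 was -0.61 ± 0.15 (adjusted p = 0.196 in limma). Sqle, the epoxidase of squalene and a rate-limiting enzyme, had the largest estimate of the list. Its levels were 8.52 to 9.02 in B6J and 6.53 to 8.56 in B6N, with 7 of 8 B6N livers below every B6J liver. The difference of Sqle was -1.09 ± 0.24 (adjusted p = 0.155 in limma). Of 16 limma fits that each left out 1 control array, 1 called it (adjusted p = 0.0476 without B6N replicate 7). In the other such fits the adjusted p was up to 0.423. Lss, the cyclase that forms lanosterol, differed by -0.72 ± 0.21 and Dhcr7, which acts at the last step, by -0.80 ± 0.23 (adjusted p = 0.358 for both). Tm7sf2, a sterol reductase, was at -0.08 ± 0.10.

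Of the regulators, Srebf2 had levels of 7.24 to 7.68 in B6J and 6.63 to 7.67 in B6N, which overlap, and a difference of -0.38 ± 0.14 (adjusted p = 0.413 in limma). Insig1, which holds SREBP in the endoplasmic reticulum and is itself a target of it, differed by -0.19 ± 0.10 (adjusted p = 0.538). On HFD the estimate was again lower for 20 of 20 genes, against 9592 of 19938 genes tested, with a median of -0.29. An unadjusted p of 0.05 on the lower side was passed by 12 there (3.12% of all genes). Sqle was at -0.94 ± 0.25 and Hmgcs1 at -0.08 ± 0.17 there, none called.

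**Figure D4:**
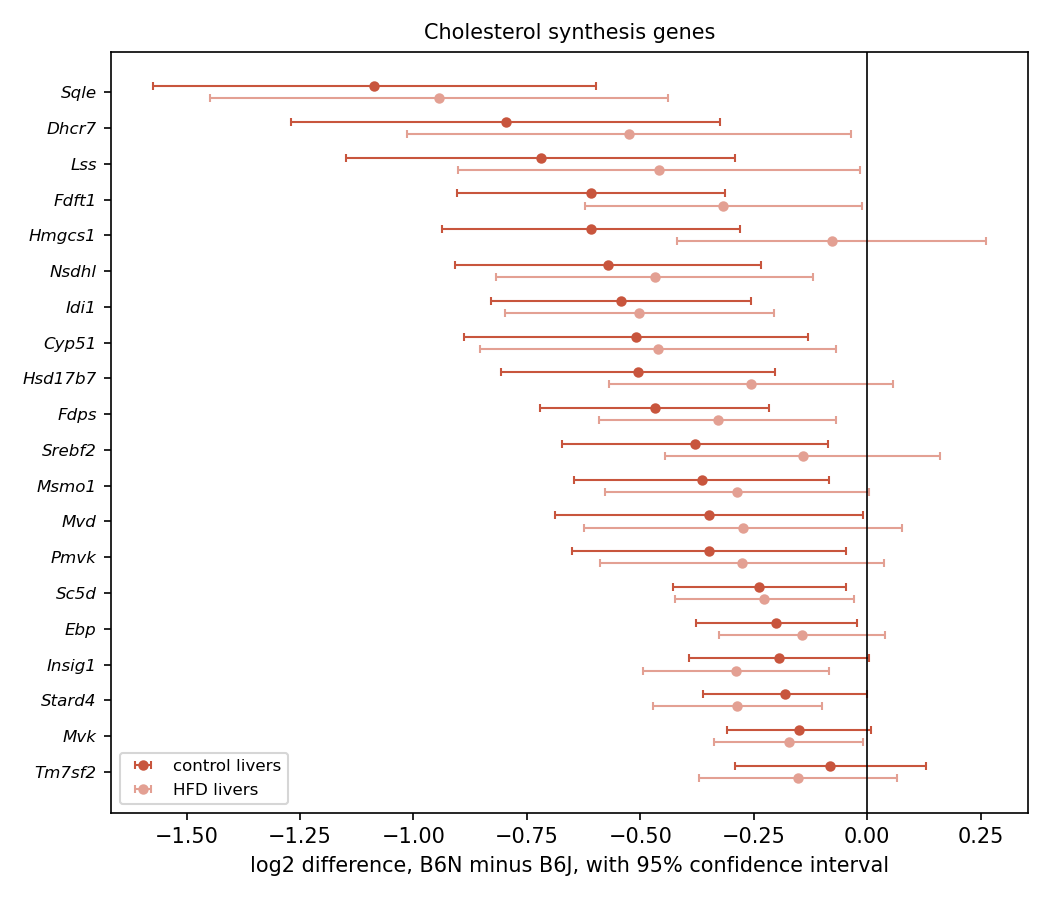
Log2 difference of B6N minus B6J with its 95% confidence interval for the 20 cholesterol synthesis genes, in control livers (dark) and HFD livers (light). All 40 estimates lie left of 0, from -1.09 for Sqle in controls to -0.08 for Hmgcs1 on HFD.

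The promoters of Hmgcs1 and Idi1, which encode enzymes of this list, and of Asns, the gene with the lowest p in the stress list below, are shown because these genes had lower estimates in B6N and their promoters hold letters known from this regulation. Each is the 250 bases before the RefSeq start site (GRCm38.p6), on the strand of the gene. Capitals mark every match, on either strand, to the sterol response element core CACNCCAC (in Hmgcs1), to CCAAT, here read as ATTGG (in Hmgcs1 and Idi1), and to TGATGNAA, the core of the element bound by ATF4 and its partners (in Asns, and in Idi1 on the other strand).
Hmgcs1, chr13:119690101-119690350, plus strand: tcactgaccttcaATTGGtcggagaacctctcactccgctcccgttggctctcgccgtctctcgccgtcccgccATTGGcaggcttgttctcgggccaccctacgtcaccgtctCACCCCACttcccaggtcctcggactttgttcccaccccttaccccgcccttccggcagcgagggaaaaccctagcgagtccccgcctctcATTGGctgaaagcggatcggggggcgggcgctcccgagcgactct
Idi1, chr13:8885356-8885605, plus strand: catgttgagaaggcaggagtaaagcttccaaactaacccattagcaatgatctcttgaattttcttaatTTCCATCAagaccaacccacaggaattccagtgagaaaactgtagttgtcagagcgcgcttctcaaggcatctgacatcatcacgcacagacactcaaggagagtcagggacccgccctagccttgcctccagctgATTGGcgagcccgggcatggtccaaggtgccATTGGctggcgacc
Asns, chr6:7693210-7693459, minus strand: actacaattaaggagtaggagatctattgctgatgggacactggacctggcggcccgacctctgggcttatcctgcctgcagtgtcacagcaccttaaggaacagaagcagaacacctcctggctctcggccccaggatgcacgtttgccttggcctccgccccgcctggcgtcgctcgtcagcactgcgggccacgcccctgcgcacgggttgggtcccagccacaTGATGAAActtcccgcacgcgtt
Searching both strands of all 32851 windows in the RefSeq table, CCAAT was found in 33.8%, CACNCCAC in 5.29% and TGATGNAA in 3.45%. The cholesterol list had 19 windows of 16 genes. Sqle, Fdft1, Fdps and Stard4 had no window among those searched, so the shares do not cover them. Of the 19 windows, 16 held CCAAT (84.2%), those of Hmgcs1 and Insig1 held CACNCCAC (10.5%), and that of Idi1 held TGATGNAA (5.26%). The 26 windows of the stress list held CCAAT in 69.2%, CACNCCAC in 7.69% (Calr and Hsp90b1) and TGATGNAA in 19.2% (Asns, Atf3, Chac1, Fgf21 and Herpud1). In Asns the match starts 23 bases before the start site, and in Hmgcs1 CACCCCAC starts 136 bases before it. A match describes letters and not a bound site.

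Genes of fatty acid and triglyceride synthesis also had lower estimates in B6N, 24 of 25 with a median of -0.31, and 9 passed an unadjusted p of 0.05 on the lower side (5.33% of all genes), none called. The median was -0.28 in part A and -0.27 in part B. Elovl1, an elongase of very long chains, differed by -0.47 ± 0.11 (adjusted p = 0.164 in limma). Fasn, the fatty acid synthase, had levels of 9.05 to 10.54 in B6J and 8.19 to 10.37 in B6N, which overlap, and differed by -0.65 ± 0.31 (adjusted p = 0.520). Acaca and Acacb, which make malonyl-CoA, were at -0.53 ± 0.23 each. The desaturases Fads1 and Fads2 were at -0.39 ± 0.14 and -0.36 ± 0.13. With the acinar score described below as a covariate, the median of this list was -0.18 and 1 gene passed an unadjusted p of 0.05 on the lower side (3.82% of all genes), while the cholesterol median was -0.44 with 14 genes.

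In the list of endoplasmic reticulum stress and ATF4 targets 23 of 27 genes had lower estimates in B6N controls, with a median of -0.20, and 12 passed an unadjusted p of 0.05 on the lower side (5.33% of all genes), none called. The median was -0.33 in part A and -0.11 in part B, and -0.21 with the acinar score as a covariate, when 8 passed (3.82% of all genes). On HFD the median was -0.04, and 17 of 27 estimates were lower, against 9592 of 19938 genes tested. There 3 passed on the lower side (3.12% of all genes) and 2 on the higher (814 of the 19938 genes). Asns, the asparagine synthetase, had levels of 6.59 to 7.86 in B6J (median 7.33) and 5.32 to 7.18 in B6N (median 6.04). Of the B6N livers 7 of 8 lay below every B6J liver. Its difference was -1.10 ± 0.22 (adjusted p = 0.0672 in limma), and with the array parts as a block it was called (adjusted p = 0.0176). Of 16 limma fits that each left out 1 control array, 2 called it, without B6J replicate 4 (adjusted p = 0.0242) or B6N replicate 5 (0.0065). In the other such fits it was not called, with an adjusted p up to 0.247. On HFD it was called at -1.47 ± 0.23 (adjusted p = 9.63e-04). Among the chaperones, Hspa5, the main folding helper of the reticulum, was at -0.34 ± 0.12, with -0.60 in part A and -0.08 in part B, and Pdia4, a disulfide isomerase, at -0.41 ± 0.13. Both HFD estimates were near 0 (-0.0064 and -0.07).

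**Figure D5:**
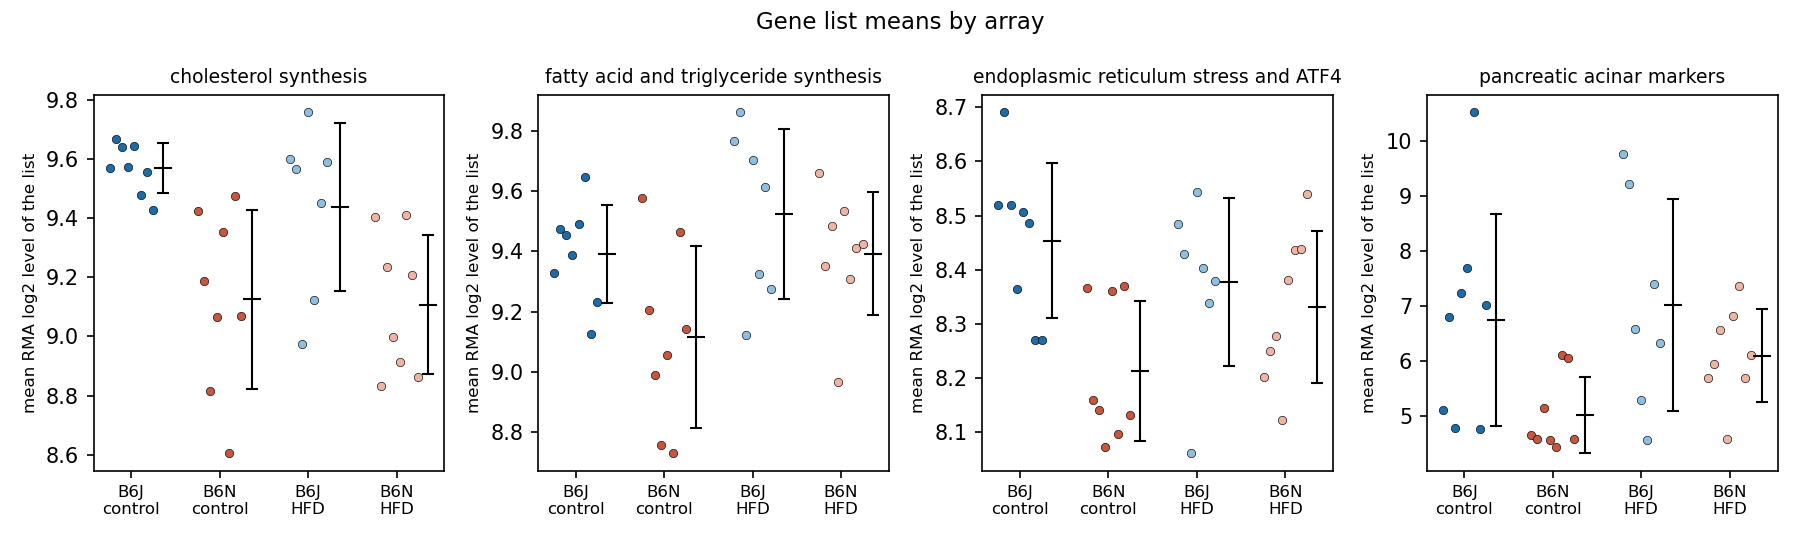
Mean RMA log2 level of 4 gene lists on each array of the 4 groups, with group mean and SD at the right of each group. In controls the cholesterol synthesis means are 9.43 to 9.67 in B6J and 8.60 to 9.48 in B6N, and the pancreatic acinar means reach 10.53 in B6J but only 6.11 in B6N.

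The blocked fit called 12 genes (0.0602%), the 6 above and Asns, G0s2, Gm10190, Plpp2, Psmb9 and Slc25a25. The parts used as the block were drawn from the variation of these same arrays, which by itself lowers the residual spread. The added calls are therefore no separate support. G0s2, an inhibitor of the lipase that breaks down stored triglyceride, was 0.79 ± 0.21 higher in B6N. Slc25a25, a mitochondrial carrier of ATP and magnesium, was 0.55 ± 0.12 higher, and its groups did not overlap. Psmb9, a subunit of the immunoproteasome, was 0.39 ± 0.09 higher, and Plpp2, a lipid phosphatase, was at -0.42 ± 0.09. In the fit of all 31 arrays without the block their adjusted p ran from 0.0672 to 0.322 in limma.

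Transhydrogenase makes mitochondrial NADPH, and 3 lists held the enzymes around it. At an unadjusted p under 0.05, 5.33% of all genes passed on the lower and 4.07% on the higher side. Of 15 genes of mitochondrial NADPH and redox, Nnt was the 1 called, and the median was -0.02 (-0.01 in part A and -0.03 in part B). Idh2, the matrix isocitrate dehydrogenase that also makes NADPH, was at -0.20 ± 0.09 (adjusted p = 0.515 in limma) and Glud1, glutamate dehydrogenase, at -0.18 ± 0.07 (adjusted p = 0.422). Of 10 genes of cytosolic NADPH supply 8 had lower estimates, with a median of -0.17, 4 passing an unadjusted p of 0.05 on the lower and 1 on the higher side. The largest estimates were those of H6pd, at -0.35 ± 0.15, and Mthfd1, a folate enzyme, at -0.34 ± 0.13 (adjusted p = 0.467 and 0.418 in limma). H6pd makes NADPH in the reticulum, so the counts of this list are not of cytosolic enzymes alone. The median was -0.11 in part A and -0.19 in part B. Of 29 genes of glutathione and antioxidant defence 2 passed on the lower side, a share near that of all genes, and none on the higher, with a median of -0.04 that was 0.016 in part A and -0.09 in part B. Gstm3, a glutathione transferase, was at -0.41 ± 0.13 (adjusted p = 0.393 in limma). Of 41 subunits of oxidative phosphorylation 3 passed on the higher side (Ndufb9, Ndufa2 and Sdhb), with a median of 0.08 (0.09 and 0.04 in parts A and B).

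Interferon response genes gave 6 of 29 at an unadjusted p under 0.05 on the higher side (4.07% of all genes), none on the lower and none called, with a median of 0.06 (0.01 in part A and 0.09 in part B). Cxcl9, a chemokine induced by interferon gamma, was at 0.59 ± 0.20 and Ifit1, an antiviral effector, at 0.51 ± 0.17 (adjusted p = 0.413 for both in limma). Their HFD estimates were -0.22 ± 0.21 and -0.11 ± 0.18. Of the amino acid and urea cycle genes 7 of 31 passed on the lower side (5.33% of all genes), led by Csad of taurine synthesis at -0.70 ± 0.19 (adjusted p = 0.322), which was called on HFD (-0.93 ± 0.20). Of 23 genes of fatty acid uptake and lipoproteins 6 passed on the lower side and 2 on the higher (5.33% and 4.07% of all genes). None was called, and the median was -0.0089. They included Fabp5, a fatty acid binding protein, at -1.10 ± 0.28 and Cd36, the fatty acid translocase, at 0.54 ± 0.24. Of 34 genes of fatty acid oxidation and of 18 clock genes none passed in either direction.

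Pancreatic acinar genes, which encode digestive enzymes, had lower estimates in B6N control livers. Of 22 measured markers all 22 had lower estimates in B6N, against 8926 of 19938 genes tested, with a median of -2.01. An unadjusted p of 0.05 on the lower side was passed by 16 markers (5.33% of all genes), none called. The mean of the markers per array (the acinar score) ran from 4.77 to 10.53 in B6J, with a median of 6.91, and from 4.42 to 6.11 in B6N, with a median of 4.61. The groups overlapped, and replicate 6 of B6J held the highest score. The difference of the means was -1.73 (exact two-sided permutation p = 0.0213, n = 8 each), -1.25 in part A and -2.22 in part B (exact p = 0.0857 and 0.114; 4 against 4). Without replicate 6 of B6J it was -1.19 (exact permutation p = 0.0426). No other list was tested this way. This list was picked because acinar RNA was already known to vary between these livers, and the p-values do not allow for that choice. With the score as a covariate 6 genes were called. Nnt, Wdfy1, Acnat2, Entpd4 and Tmem267 kept their calls, G530011O06Rik was lost (adjusted p = 0.175 in limma) and Mfsd2a, a lysophospholipid transporter, was gained (1.14, against 0.82 ± 0.23 without it). Beyond these covariate values, the part of the acinar signal in the other differences was not tested.

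Of the other cell types, hepatocyte markers had 15 of 17 lower estimates and 6 at an unadjusted p under 0.05 on the lower side, with a median of -0.10. Over all genes 5.33% passed on the lower and 4.07% on the higher side. These include Asgr2, an asialoglycoprotein receptor subunit, at -0.38 ± 0.11 and Apob, the structural protein of very low density lipoprotein, at -0.36 ± 0.11 (adjusted p = 0.358 for both in limma). Macrophage and Kupffer cell markers had 2 of 24 on the higher side, endothelial markers 3 of 16 on the lower and 1 on the higher, and stellate cell markers 2 of 20 on the lower. Their medians were 0.06, -0.11 and -0.02. The part of cell makeup in the differences above was not tested.

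The levels of the called genes were also ranked within arrays of the other strains, whose values were scaled separately. The median percentile of Acnat2 among all genes was 14.9 in B6J, 50.0 in B6N, 77.1 in 129P2/OlaHsd (129) controls and 76.6 in C3HeB/FeJ (C3H) controls. Tmem267 was at 79.4 in B6J, 67.3 in B6N, 45.7 in 129 and 53.5 in C3H. Nnt was at 88.3, 94.6, 91.6 and 93.8, and Entpd4 at 90.9, 86.3, 92.6 and 86.9. Wdfy1 was at 57.0, 69.6, 64.9 and 64.9, and G530011O06Rik at 56.3, 35.6, 32.2 and 32.5. By this measure B6J had the lowest median rank of Nnt, Acnat2 and Wdfy1 and the highest of Tmem267 and G530011O06Rik. For Entpd4, B6N and C3H had lower median ranks than B6J and 129. These ranks are a description across separately scaled sets and were not tested.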

How the data were processed

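Members and gene lists were chosen with earlier results of these data known. Per the submitters' processing notes, the deposited log2 values were made by the authors with RMA in Affymetrix Expression Console 1.1; the genome build and probe annotation behind them are not given in the sources used here. Array medians fell into separate sets for 129, B6 and C3H arrays, so levels were compared only among the 31 B6 arrays. Genes were named from the platform annotation (12146 probe sets were not listed and 1621 had several symbols).

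One model with 4 group means was fitted with limma 3.58.1 in R 4.3.3 (27 residual degrees of freedom, eBayes), with two-sided tests and Benjamini-Hochberg adjustment over 19938 genes. Adjusted p-values come from it, or from limma fits of the block, part, covariate or left-out array named beside them. The fit was tested on simulated data. Permutation tests used scipy 1.17.1. Genes named by rule were those called, the measured genes of the variant list, Alb and Ttr; others were chosen after their values were seen. Alternatives covered array sets, blocks, weights, scaling, brightness, probe sets, prior, acinar score and leaving out each array. Promoters came from RefSeq (GRCm38.p6). The number of arrays limits the precision.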

Additional observations from a re-analysis of the deposited data

Results flagged for a closer look

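Tmem267 had 1 array far from the rest of its group: replicate 3 of the B6J controls was at 8.01, and the next highest at 7.26, a gap of 0.528 of the group's range. The gene was still called without that array. The mean level of the interferon response genes was also highest in 1 array of its group, replicate 4 of the B6J controls, at 6.03 against 5.91 in the next, a gap of 0.589 of the range. Among 70 group values examined, 2 stood apart in this way, and chance gives about 1 in 20.

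Among the 13767 probe sets without a single gene symbol, which no comparison above uses, 8 were called higher and 14 lower in B6N controls (0.16% of them, limma with Benjamini-Hochberg adjustment over all probe sets). Some of these carry the same values on every array, and counted once each 5 were higher and 13 lower. Of the 22, 17 were also called with the same sign on HFD. Probe set 10415081 was at 4.53 in B6J and 6.52 in B6N, a log2 difference of 1.99 ± 0.29, and 2.09 on HFD. Probe set 10468877 differed by 1.32 ± 0.22. On the lower side, 10608711 differed by -1.42 ± 0.17 and 10504148 by -1.39 ± 0.13. Of the called probe sets 9 were not listed in the annotation and 13 carried several symbols, so none is named.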

How the results depend on the processing

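The control count of 6 was 14 with the replicate block, 12 with the array split block and 13 with the split block and the acinar score together, the last chosen after seeing the data. It stayed between 5 and 8 when any 1 array was left out. The HFD count of 37 was 77 with the replicate block, 84 with the array split block, 74 with array weights, and 21 to 56 when any 1 array was left out. The interaction count was 0 to 1. The acinar score difference was -2.02 to -1.19 without 1 array. The split block was drawn from the variation of these same arrays, which by itself lowers the residual spread. Beyond that, the cause of these shifts was not tested. Whether the replicate numbers pair the arrays was not settled. Same-numbered control arrays correlated at 0.0546 to 0.379 after removal of group means, 6 of 8 pairs over 0.1, and 6 of 16 arrays matched their own number best. Under the replicate block all 6 control genes kept their calls, and Asns, G0s2, H2-M10.3, Idi1, Ndufa4l2, Plpp2, Plxnb1 and Slc25a25 were gained; Idi1 had an adjusted p of 0.0493 in limma. Without the block, Slc25a25 and H2-M10.3 were also called with the 16 control arrays alone, Plpp2 without B6J replicate 4 or B6N replicate 4, and Asns without B6J replicate 4 or B6N replicate 5.

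Medians of some lists near 0 also turned sign, among those printed glutathione defence (-0.0945 to 0.016) and mitochondrial NADPH (-0.047 to 0.021). The median of the pancreatic acinar markers, -2.01 in the main fit, was 0.017 with the acinar score as covariate. That score is the mean of the same markers, so 0.017 does not bear on how stable the sign is. Among single genes, signs turned for those near 0, none called: Cyfip2 (-0.15 within part A), Fgfbp3 (-0.13 within part B), Zp2 (0.006 within part B), Gabra2 (-0.014 within part B, -0.010 under quantile normalisation, -0.025 under median centring, -0.027 with the acinar score, -0.039 with split block and acinar score) and Adcy5 (-0.008 within part B, -0.0061 under quantile normalisation, -0.0076 under median centring). Leaving out 1 array gave -0.0083 to 0.065 for Adcy5, -0.0028 to 0.062 for Crb1, -0.029 to 0.065 for Cyfip2 and -0.040 to 0.039 for Gabra2.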
